A study of Papio hamadryas with 72 samples.

Results

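Liver gene expression was compared at baseline, on chow, between juvenile baboons whose mothers ate a nutrient-reduced diet (MUN) and juveniles whose mothers ate freely (CON). The comparison took the 12 liver arrays whose labels give chow as the diet, out of 24 liver arrays and 72 arrays in the series. Each group held 6 animals, 3 females and 3 males, labelled Papio hamadryas. All 12 animals had eaten chow since weaning, were 4.5 years old and had been fasted overnight. In MUN the mother's diet was reduced through pregnancy and lactation, and no other treatment separated the groups. Biopsies were taken by needle from the right lobe under isoflurane, so each array reads a small piece of whole tissue and the animal is the replicate. Replicates 1 to 3 of each group are the females and replicates 4 to 6 the males. The same animals were sampled again after 7 weeks on a high fat, high carbohydrate diet with a sugar drink (HFCS), and those later arrays enter only the last comparison. RNA was hybridised to human BeadChips, which carry probes designed on human transcripts. A probe whose baboon target differs in sequence can therefore be dim, and levels of different genes are not compared. All values below are log2 signal after quantile normalization, and all differences are MUN minus CON.

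The liver is mostly hepatocytes, which make the plasma proteins, store glycogen and synthesise cholesterol, with Kupffer cells (its resident macrophages), endothelial cells and stellate cells between them. Early response genes are transcribed within minutes when cells meet a growth factor, a cytokine or a stress, and their transcripts are short-lived. They include transcription factors such as JUN, KLF6 and MYC, the stress sensors GADD45A and GADD45B, and ZFP36, which binds AU-rich elements and speeds the decay of cytokine transcripts. CSF1R is the receptor through which macrophages receive their survival signal.

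Both male MUN replicates 4 and 6 stood apart before any comparison of genes. Their median correlation with the other liver arrays was 0.501 and 0.675, against 0.969 to 0.978 for the 10 other arrays on chow. Their 95th percentile of signal was 151.1 and 150.0, against 328.7 to 506.5, and they detected 10136 and 9891 probes, against 10870 to 13215. With both included, two-sided exact permutation tests between MUN and CON gave p = 0.351 for correlation, 0.219 for detected probes and 0.121 for the 95th percentile over 924 splits, each 0.617 after Benjamini-Hochberg adjustment over 6 tests. The rest of the 6 tests compared the same measures without these arrays, between 4 MUN and 6 CON arrays. Two-sided exact permutation tests over 210 splits there gave p = 0.486 for correlation, 0.824 for detected probes and 0.514 for the 95th percentile. The weak arrays were left out by their correlation, so the tests without them cannot show whether the full groups differed in array quality. Each result is therefore given without replicates 4 and 6 (10 arrays, 4 MUN and 6 CON), and with them (12 arrays) for the lists and for named genes whose difference turned or moved by over 1.5 times. The 10 arrays hold 1 MUN male, replicate 5, so values in females alone are added where they differ. Scanner, slide and date are not given in the sources used here, so no batch could be tested.

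**Figure D1:**
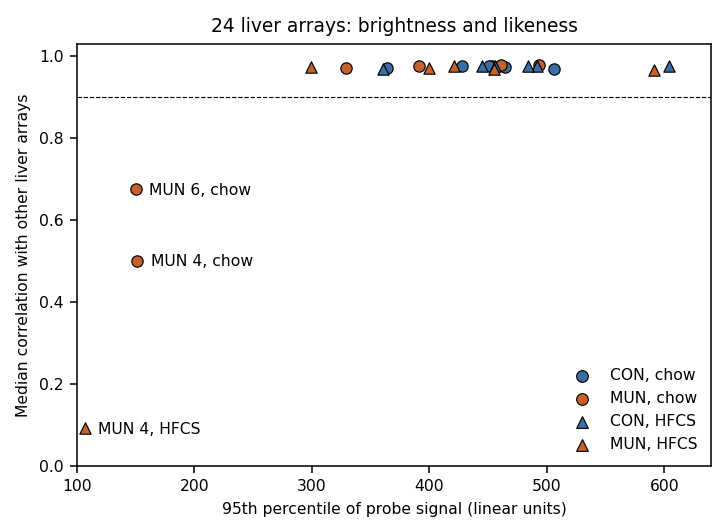
Median correlation of each of the 24 liver arrays with the other liver arrays (vertical axis) against its 95th percentile of probe signal (horizontal axis, linear units), by maternal group and diet. MUN replicates 4 and 6 on chow lie at correlations of 0.501 and 0.675 and signals of 151.1 and 150.0, and MUN replicate 4 on HFCS at 0.0925, while the 10 other arrays on chow lie at 0.969 or above.

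The weak arrays read some hepatocyte proteins far below the others and some at the same normalized level. Albumin (ALB), the main plasma protein, was at 13.65 to 14.17 in CON and at 14.24 and 13.88 on MUN replicates 4 and 6. Quantile normalization gives probes of equal rank the same value, so the ALB levels on these replicates give its rank and not its brightness. Transthyretin (TTR), which carries thyroid hormone, was at 13.89 to 14.27 in CON and at 7.09 and 7.53 on these replicates. Replicate 4 read 15 of 41 measured plasma protein genes at least 3 log2 units below the CON mean and replicate 6 read 9, with 7 on both, whereas no such gene lay that far below on the 4 other MUN arrays. Over all 8685 genes tested, 303 lay that far below on replicate 4 and 201 on replicate 6, again with none on the other 4. Of the 13 measured genes that define hepatocytes, 4 lay that far below on replicate 4 and 3 on replicate 6, among them the alcohol-oxidising enzyme CYP2E1 at 6.76 and 7.42 against 13.66 to 14.21 in CON. The other 10 arrays carried all 13 hepatocyte genes, with a mean level of 10.67 to 11.19 in CON and 10.84 to 11.16 in MUN, which matches the tissue label.

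**Figure D2:**
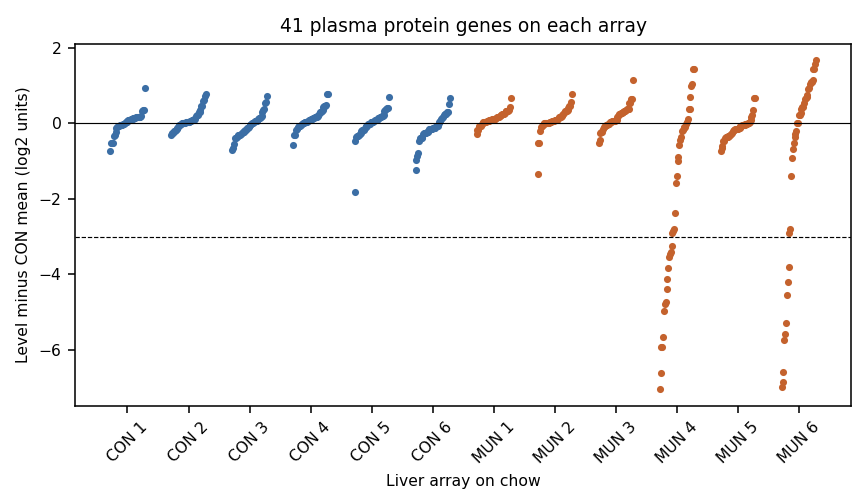
Level of each of 41 plasma protein genes minus its CON mean (log2 units, 1 point a gene, ordered within each array) on the 12 liver arrays on chow, with a dashed line 3 units below the CON mean. On MUN replicate 4, 15 genes lie below the line, on replicate 6 there are 9, and on the 4 other MUN arrays none.

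No gene passed the adjusted test between MUN and CON. With calls requiring an adjusted p below 0.05 together with at least 1.2-fold, limma found 0 of 8685 genes (0%) in 12 arrays and 0 of 8685 (0%) in 10 arrays, with smallest adjusted p values of 0.856 and 0.971. At an unadjusted p under 0.05, 262 genes (3.02%) differed in 12 arrays, 74 of them (0.852%) lower in MUN, and 382 (4.4%) in 10 arrays, of which 218 (2.51%) were lower and 164 (1.89%) higher in MUN. In 12 arrays the groups did not overlap at 18 genes (0.207%), 13 of them (0.15%) with MUN above. In 10 arrays they did not overlap at 72 genes (0.829%), 38 (0.438%) with MUN below and 34 (0.391%) with MUN above. The median difference over all genes was 0.01 in 10 arrays. Every gene named below therefore fails the adjusted test, and its values are given as descriptions with standard errors (SE) from limma. In bulk tissue, fewer cells of a type and less RNA per cell cannot be told apart.

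The stress genes GADD45B, GADD45A and ZFP36 lay lower in MUN on average. GADD45B ran from 9.14 through a median of 9.84 to 10.24 in CON and was at 8.32, 8.03, 8.21 and 9.58 in MUN replicates 1, 2, 3 and 5. The 3 MUN females lay below every CON animal, and the MUN male lay among them. The difference was -1.27 (SE 0.29) in 10 arrays and -1.10 in 12, where the weak replicates were at 8.84 and 9.22. GADD45A, the related sensor of DNA damage, ran from 8.53 through 9.58 to 9.87 in CON and was at 8.58, 8.10, 7.75 and 9.37 in MUN, and its second kept probe gave a difference of -0.92 against -0.88 (SE 0.36) for the probe used. On the probe used, the GADD45A difference was -0.60 with sex as a term and -0.66 in females. ZFP36 ran from 9.35 through 10.72 to 11.14 in CON and was at 9.92, 9.50, 9.37 and 9.13 in MUN. Here the male was the lowest MUN animal, and CON replicate 1, at 9.35, was the only CON animal inside the MUN range. The ZFP36 difference was -1.11 (SE 0.30) in 10 arrays, while the weak replicates read 6.97 and 11.21. BTG1, an antiproliferative gene of the same list, lay the other way in females, at 10.63, 10.70 and 10.83 in MUN against a CON range of 9.82 to 10.40. The MUN male was at 9.76, which gave a difference of 0.35 (SE 0.19) in 10 arrays and 0.70 in females, and of -0.40 in 12 arrays. Of the 8 measured members of the GADD45, ZFP36 and BTG families, 6 were lower in MUN, 3 of them at an unadjusted p under 0.05, and the median difference was -0.40. That median was -0.25 without CON replicate 5 and -0.68 in 12 arrays, where 5 of 8 were lower. Among all genes in 10 arrays, 47.2% were lower and 2.51% were lower at an unadjusted p under 0.05. GADD45B, ZFP36 and CSF1R were given with the comparison, and lists and members were chosen with earlier results of these data known. The counts of this list and of those that follow are therefore not independent evidence.

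The early response transcription factors leaned the same way. Of 20 measured, 15 were lower in MUN and 9 had an unadjusted p under 0.05, all lower, with a median of -0.43. Of all 8685 genes 47.2% were lower and 2.51% were lower at an unadjusted p under 0.05, or 37.7% and 0.852% in 12 arrays. JUN, a subunit of AP-1, was at 8.44, 8.82, 8.52 and 8.84 in the MUN arrays and between 8.99 and 9.81 in CON, with a median of 9.30, so the groups did not overlap. Its difference was -0.68 (SE 0.18), and weak replicate 6, at 10.62, lay above every other array. KLF6, a zinc-finger factor, was at 8.57, 8.94, 8.37 and 8.31 in MUN against 8.75 through 9.23 to 9.59 in CON. Of the MUN animals only replicate 2 reached the CON range, and the KLF6 difference was -0.66 (SE 0.18). MYC, which drives cell growth, was at 7.36, 6.99 and 7.32 in the MUN females and 9.07 in the MUN male, against 8.09 through 9.14 to 10.12 in CON. Its difference, -1.44 (SE 0.43), was carried by the females. JUNB, another AP-1 subunit, differed by -0.70 (SE 0.21) and CEBPD, a factor of the acute phase response, by -0.57 (SE 0.19). XBP1, a factor of the unfolded protein response, was at 10.65, 10.22, 10.90 and 10.60 in MUN and 9.97 to 10.79 in CON, a difference of 0.09 (SE 0.17). With all 12 arrays the differences were -0.36 at JUN, -0.33 at KLF6, -0.41 at JUNB, -0.11 at CEBPD and 0.52 at XBP1. KLF6 and XBP1, with YAP1 and TP63, which had no usable probe, were taken up because the study's own network analysis of these arrays names them, so their values are not independent evidence.

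CON replicate 1 was the control with the lowest early response levels. It was the lowest of the 6 CON animals at 14 of the 20 transcription factors, and MUN replicate 5 was the highest of the 4 MUN animals at 10. The mean level of the 20 genes per animal lay between 8.18 and 8.92 in CON and between 8.12 and 8.44 in MUN, so the groups overlapped. Without CON replicate 1, the median difference was -0.55, and 10 of the 20 genes had an unadjusted p under 0.05. Without CON replicate 2, MUN replicate 2 or MUN replicate 3 there were 6 such genes, with medians of -0.36, -0.41 and -0.35. Over all the alternatives with 20 genes, between 15 and 18 of them were lower in MUN. In 12 arrays 16 were lower, 1 had an unadjusted p under 0.05 and the median was -0.31.

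Feedback inhibitors and effectors of the early response were lower in MUN at 19 of 23 measured genes, 5 of them at an unadjusted p under 0.05, with a median of -0.17. The shares over all genes were 47.2% and 2.51%. RASD1, a Ras-family protein induced by glucocorticoid, was at 7.37, 7.26, 8.08 and 8.48 in MUN and ran from 7.40 through 8.94 to 10.36 in CON. The RASD1 difference of -1.31 (SE 0.50) lay within overlapping groups. DUSP5, a phosphatase that switches off ERK, differed by -1.02 (SE 0.40) and SGK1, a kinase induced by glucocorticoid and serum, by -0.69 (SE 0.29). SGK1 was at -0.46 without CON replicate 2 and at -1.36 in 12 arrays. DUSP1, a phosphatase of stress kinases, lay at 6.42 to 6.64 in MUN and 6.65 to 7.78 in CON, but it was detected in 3 of 6 CON animals and 0 of 4 MUN animals. Leaving out MUN replicate 2 left 0 of the 23 genes at an unadjusted p under 0.05, with 19 lower, while 2 passed without MUN replicate 3 and 3 without MUN replicate 1, CON replicate 2 or CON replicate 6. In 12 arrays 14 of 23 were lower and the median was -0.07, and without CON replicate 2 it was -0.10.

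**Figure D3:**
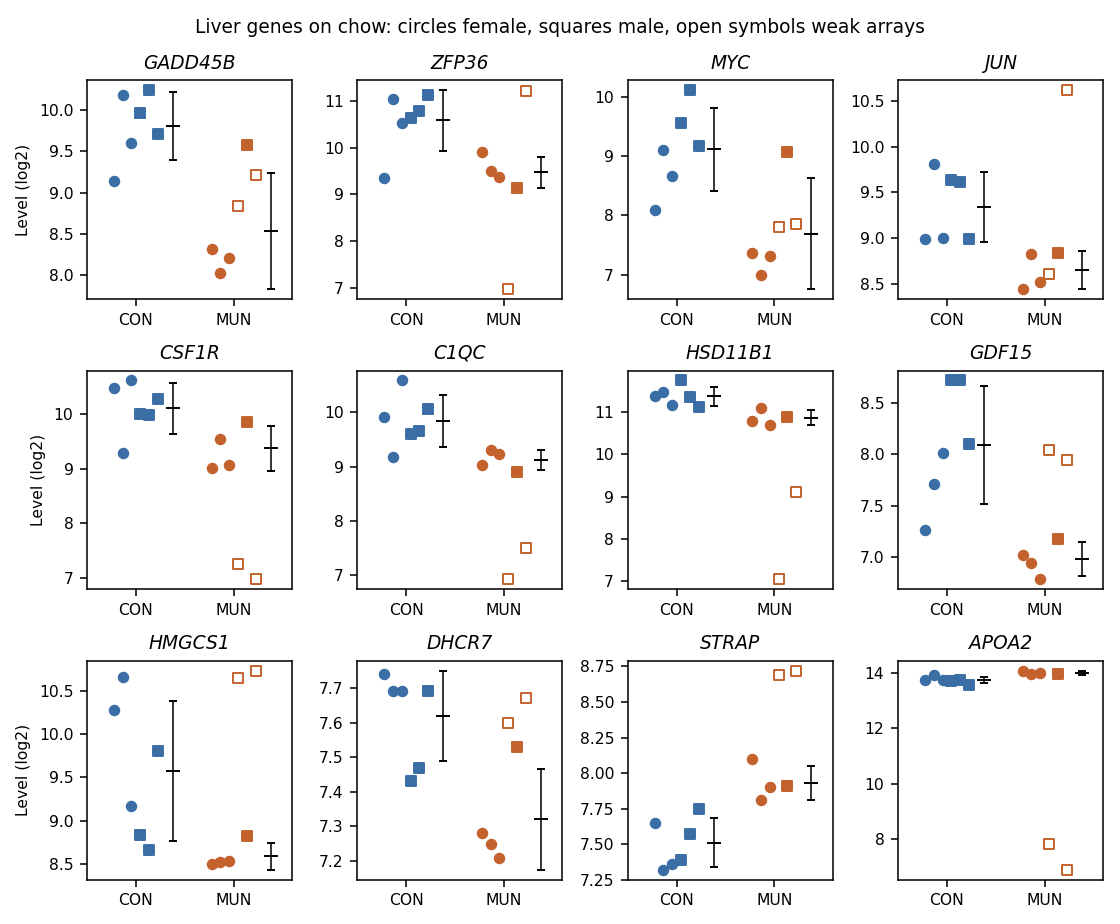
Level of 12 genes (log2) in each CON and MUN animal on chow, with circles for females, squares for males and open symbols for weak MUN replicates 4 and 6, and beside each group its mean and SD over 6 CON or 4 MUN arrays. For GADD45B the 3 MUN females lie at 8.03 to 8.32, below all CON animals (9.14 to 10.24), while the MUN male lies at 9.58.

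Kupffer cell and macrophage markers were lower in MUN at 12 of 17 measured genes, 9 of them at an unadjusted p under 0.05, with a median of -0.29. Over all genes those shares were 47.2% and 2.51%. CSF1R was at 9.02, 9.55, 9.06 and 9.86 in MUN and 9.29 through 10.13 to 10.61 in CON. MUN replicates 1 and 3 lay below every CON animal while replicates 2 and 5 lay among them, and the difference was -0.73 (SE 0.25). MARCO, a scavenger receptor of Kupffer cells, was at 7.27, 7.52, 7.20 and 7.65 in MUN and 7.51 to 8.59 in CON, a difference of -0.58 (SE 0.18). C1QC, a chain of complement C1q made by macrophages, was at 9.03, 9.31, 9.24 and 8.90 against 9.17 to 10.59, a difference of -0.72 (SE 0.22). HMOX1, which breaks down heme, differed by -0.60 (SE 0.17). CD163, which takes up hemoglobin, differed by -0.57 (SE 0.18), but its dimmer second probe gave 0.03. FOLR2, a folate receptor of resident macrophages, differed by -0.29 (SE 0.08), and was detected in 6 of 6 CON animals but 1 of 4 MUN animals. The defining markers did not share that direction evenly. CD14, the co-receptor for lipopolysaccharide, which hepatocytes make too, differed by 0.09 (SE 0.15), and CD68, a lysosomal protein of macrophages, by -0.05 (SE 0.12), while another CD68 probe gave -0.40. The mean level of the 17 markers per animal was 7.85 to 8.15 in MUN and 8.03 to 8.57 in CON, with CON replicate 2 the lowest control at 11 markers. With all 12 arrays, 11 of 17 were lower, 3 had an unadjusted p under 0.05 and the median was -0.17. There CSF1R and C1QC differed by -1.48 and -1.36, MARCO, CD163 and FOLR2 by -0.33, -0.17 and -0.12, and CD14 and CD68 by -0.80 and -0.20. Background correction by normexp, which widens differences of dim probes, moved the 10-array median of the list to -0.62 and FOLR2 to -0.62, with 12 of 17 lower as before.

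Genes that macrophages share with monocytes followed, with 21 of 25 lower in MUN, 8 at an unadjusted p under 0.05, and a median of -0.14. For this list and those that follow, the shares over all genes in 10 arrays were again 47.2% and 2.51%. In 12 arrays 37.7% of all genes were lower and 0.852% were lower at an unadjusted p under 0.05. In females 47.7% of all genes were lower. FCER1G, the signalling chain of Fc receptors, was at 6.86, 7.06, 6.77 and 7.49 in MUN and 7.36 through 7.63 to 8.22 in CON, a difference of -0.67 (SE 0.19). TLR2, a receptor for bacterial lipoproteins, differed by -0.37 (SE 0.11) and HLA-DRA, which presents antigen, by -0.81 (SE 0.24), with -0.81 also on its second probe. Without MUN replicate 1 the count of 8 was 3, and without MUN replicate 2, CON replicate 3 or CON replicate 6 it was 5. MUN replicate 5 was the highest MUN animal at 14 of these 25 genes, and with all 12 arrays 13 of 25 were lower, 1 at an unadjusted p under 0.05, with a median of -0.01. FCER1G then differed by -0.26, while normexp background correction of the 10 arrays gave -1.31 at FCER1G and a list median of -0.32. Interferon-stimulated genes were lower at 14 of 21, with 5 at an unadjusted p under 0.05, 2 without MUN replicate 1 and 3 without MUN replicate 2, MUN replicate 3 or CON replicate 3. With all 12 arrays 15 of 21 were lower but 0 had an unadjusted p under 0.05, and in the fit of all 4 liver groups 1 had. Among these IRF1, a transcription factor of the interferon response, was at 7.03, 7.09 and 7.03 in MUN females and 7.58 in the male, against 7.38 to 7.75 in CON, a difference of -0.41 in 10 arrays and -0.17 in 12. The MUN male was the highest MUN animal at 16 of the 21. The median of the interferon list was -0.127 in 10 arrays, -0.0614 with sex as a term and -0.265 in females. T and NK cell markers were lower at 11 of 13 with a median of -0.06, and KLRD1, an NK cell receptor, differed by -0.26 (SE 0.08). In 12 arrays 9 of the 13 were lower, with a median of -0.01, and KLRD1 was at -0.10. Endothelial markers were lower at 14 of 19, with a median of -0.10, and OIT3, a gene of liver sinusoidal endothelium, differed by -0.33 (SE 0.10). In 12 arrays 10 of the 19 were lower, with a median of -0.0028. Stellate cell markers were lower at 15 of 21 with a median of -0.03, and the contractile protein ACTA2 lay the other way by 0.64 (SE 0.22), or 0.33 without MUN replicate 2. In 12 arrays the stellate list turned, with 11 of 21 higher and a median of 0.07. Hepatocyte markers were higher at 11 of 13 with a median of 0.02, but lower at 8 of 13 without MUN replicate 3 or CON replicate 6, at 7 of 13 without MUN replicate 1, and at 8 of 13 in 12 arrays with a median of -0.18. The part of cell makeup in the early response values was not tested.

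**Figure D4:**
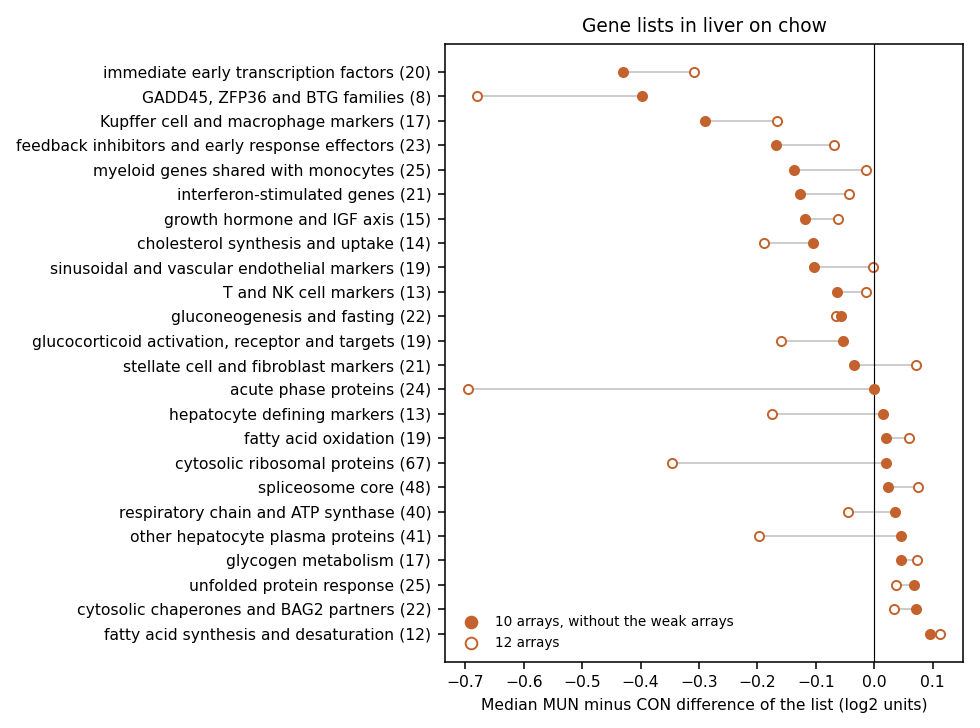
Median MUN minus CON difference (log2 units) of each gene list, with the number of measured genes in brackets, in 10 arrays (filled) and in 12 arrays (open), where the medians of all 8685 genes are 0.01 and 0.04. Early response transcription factors lie at -0.43 and -0.31 and macrophage markers at -0.29 and -0.17, while acute phase proteins lie at -0.0003 and -0.70.

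Some glucocorticoid and hormone genes did not overlap between the groups in 10 arrays, which held for 72 of all 8685 genes (0.829%). HSD11B1, the enzyme that regenerates active cortisol in liver, was at 10.78, 11.11, 10.70 and 10.88 in MUN and 11.12 through 11.38 to 11.75 in CON. Every MUN animal lay below every CON animal, by 0.01 at the closest, and the difference was -0.51 (SE 0.12). Its other kept probes gave -0.54 and -0.25. With all 12 arrays the groups did not overlap either, and the difference was -1.45. Glucocorticoid genes as a list were lower at 14 of 19 with a median of -0.05 in 10 arrays, and at 15 of 19 with -0.16 in 12. GHR, the growth hormone receptor, was at 8.54, 8.10, 8.28 and 8.00 in MUN and 7.99 to 9.84 in CON, a difference of -0.78 (SE 0.35) in 10 arrays and -0.43 in 12. Of 15 genes of the growth hormone and IGF axis 10 were lower with a median of -0.12, which was -0.05 without MUN replicate 3, -0.07 without CON replicate 6 and -0.06 in 12 arrays. GDF15, a hormone of the stress response that curbs appetite, was at 7.02, 6.94, 6.78 and 7.17 in MUN and 7.26 through 8.06 to 8.72 in CON. These groups did not overlap either, and the difference was -1.11 (SE 0.25). Over the processing and leave-one-out alternatives without the weak arrays, the GDF15 difference ran from -2.01 to -0.945, so its size depends on the processing. HAMP, the iron hormone hepcidin, was at 13.39, 11.94, 13.89 and 13.07 in MUN against 13.20 to 14.41 in CON. The HAMP difference was -0.84 (SE 0.34), or -0.46 without MUN replicate 2 and -2.77 in 12 arrays. IL1RN, the interleukin-1 receptor antagonist, differed by -0.83 (SE 0.34).

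Cholesterol synthesis genes were lower in MUN at 11 of 14, 4 of them at an unadjusted p under 0.05, with a median of -0.10. All genes gave 47.2% and 2.51%. HMGCS1, which makes the precursor of mevalonate, was at 8.50, 8.52, 8.53 and 8.82 in MUN and spread from 8.66 through 9.49 to 10.66 in CON. The MUN females lay below every CON animal and the MUN male inside the CON range, and the difference was -0.98 (SE 0.35). MSMO1, a sterol demethylase, differed by -0.85 (SE 0.33), but its other 2 kept probes gave -0.31 and 0.03. SQLE, which oxidises squalene, differed by -0.48 (SE 0.20), and DHCR7, which makes the last step to cholesterol, by -0.30 (SE 0.09). Their second kept probes gave -0.17 at SQLE and -0.23 at DHCR7. Without MUN replicate 1, 2 of the 14 genes had an unadjusted p under 0.05. In 12 arrays the weak replicates read HMGCS1 at 10.65 and 10.73, and 0 of the 14 genes had an unadjusted p under 0.05, with 12 lower and a median of -0.19. HMGCS1 then differed by -0.28, SQLE by -0.29 and DHCR7 by -0.19. The list median in 10 arrays was -0.16 without CON replicate 3 and -0.18 without CON replicate 5. Fatty acid synthesis genes were higher at 9 of 12 in 10 arrays but lower at 10 of 12 in females alone, with medians of 0.10 and -0.26. Without MUN replicate 5, 9 of the 12 were lower, and without CON replicate 5, 7 were, while in 12 arrays 9 were higher. The MUN male was highest at FASN, the fatty acid synthase, at 12.38, where MUN females were at 9.65, 9.98 and 8.15 and CON ran from 7.68 to 11.36.

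Glucose and energy genes showed little separation. Glycogen genes were higher at 11 of 17 with a median of 0.05 in 10 arrays and lower at 11 of 17 with -0.06 in females. In 12 arrays 13 were higher, and without MUN replicate 5, 9 of the 17 were lower. PPP1R3C, which targets phosphatase to glycogen, was at 7.74, 9.40, 8.88 and 8.52 in MUN and 7.31 to 8.48 in CON, a difference of 0.82 (SE 0.30) in 10 arrays and 0.24 in 12. Gluconeogenesis and fasting genes were lower at 16 of 22 in 10 arrays but at 10 of 22 in females, at 9 of 22 without MUN replicate 5 and at 15 of 22 in 12 arrays. Of these SIK1, a kinase that limits gluconeogenic transcription, differed by -0.41 (SE 0.17) and was detected in 4 of 6 CON and 1 of 4 MUN animals. Fatty acid oxidation genes were higher at 10 of 19, with 11 of 19 higher in 12 arrays and 13 of 19 lower under median centring of each array. Without CON replicate 3, MUN replicate 2, MUN replicate 3 or CON replicate 6, 10 to 12 of the 19 were lower. SLC25A20, the carnitine carrier of mitochondria, was at 8.97, 8.84, 8.79 and 8.88 in MUN against 8.20 to 8.82 in CON, a difference of 0.32 (SE 0.12). A dimmer kept probe of SLC25A20 gave 0.09. ECI2, a peroxisomal and mitochondrial isomerase, differed by 0.72 (SE 0.32) on the probe used and by -0.0014 on another. Respiratory chain genes were higher at 27 of 40 with a median of 0.04, but 21 of 40 were lower in 12 arrays, with a median of -0.05, and 21 of 40 under median centring, with -0.02. NDUFS4, a subunit of complex I, was at 9.78, 10.02, 10.07 and 9.98 in MUN and 9.39 to 9.77 in CON, and COX17, which delivers copper to cytochrome oxidase, was at 9.05, 9.05, 9.27 and 8.94 against 8.67 to 8.91. Neither gene overlapped between the groups, with differences of 0.31 (SE 0.09) and 0.29 (SE 0.08). In 12 arrays both genes overlapped and NDUFS4 differed by 0.06.

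RNA splicing, protein folding and ribosome genes had medians near 0 in 10 arrays. Spliceosome genes were higher at 28 of 48 with a median of 0.02, and 27 of 48 were lower with a median of -0.02 when each array was centred on its median in place of quantile normalization. In 12 arrays 36 of 48 were higher with a median of 0.07, while in females 26 of 48 were lower, and without MUN replicate 5 the split was 24 to 24. Over all genes in 12 arrays, 5413 of 8685 were higher, with a median of 0.04. SF3B6, a subunit of the branch site complex, was at 8.80, 8.76, 8.79 and 8.88 in MUN and 8.44 to 8.74 in CON. That difference of 0.24 (SE 0.07) was 0.73 in 12 arrays, again without overlap, but another kept probe of the gene gave -0.02. Unfolded protein response genes were higher at 17 of 25 with a median of 0.07, whereas in females 16 of 25 were lower and in 12 arrays 15 of 25 were higher. DDIT3, a factor that promotes cell death in that response, differed by -0.29 (SE 0.10) in 10 arrays and -0.19 in 12. Cytosolic chaperones were higher at 15 of 22 in 10 arrays and lower at 15 of 22 in females, with 11 of 22 under median centring and 12 of 22 in 12 arrays higher. With sex as a term 11 of the 22 chaperones were higher, with a median of 0.0001 against 0.07 without that term. BAG5, a co-chaperone, differed by 0.19 (SE 0.08) in 10 arrays and 0.12 in 12, and by 0.13 without MUN replicate 5. Ribosomal protein genes, whose copies share sequence so that single genes are uncertain, were higher at 38 of 67 in 10 arrays with a median of 0.02, and lower at 47 of 67 in 12 arrays with a median of -0.35. Median centring gave 44 of 67 lower, as did females alone, and leaving out MUN replicate 2, MUN replicate 3 or CON replicate 6 gave 34 to 38.

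Plasma protein genes were higher at 28 of 41 in 10 arrays and lower at 28 of 41 in 12 arrays, and the split was 20 to 21 without CON replicate 6. APOA2, a protein of high density lipoprotein, was at 14.08, 13.96, 14.00 and 13.95 in MUN and 13.58 through 13.75 to 13.91 in CON, without overlap and with a difference of 0.26 (SE 0.07). The weak replicates read APOA2 at 7.81 and 6.89, which turned the difference to -1.96 in 12 arrays. HABP2, a plasma protease that binds hyaluronan, lay the other way at 10.50 to 10.67 in MUN against 10.71 to 11.04 in CON, a difference of -0.27 in 10 arrays and -0.60 in 12. Acute phase protein genes were higher at 12 of 24 in 10 arrays, with a median of -0.0003, and lower at 18 of 24 in 12 arrays.

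Other genes whose groups did not overlap in 10 arrays were led by RNASET2, a lysosomal ribonuclease. It was at 8.41, 8.42, 8.30 and 8.50 in MUN and 8.61 through 8.88 to 9.08 in CON, a difference of -0.46 (SE 0.09), with the smallest unadjusted p of all genes in 10 arrays. PLAC8, a cysteine-rich protein of immune cells, was at 8.12, 8.34, 8.69 and 8.73 in MUN and 8.98 to 9.87 in CON, a difference of -0.89 (SE 0.19). A dimmer kept probe of PLAC8 gave -0.31. IGLL1, whose probe can share signal with immunoglobulin light chains, was at 8.41, 8.66, 8.91 and 9.30 against 9.34 to 10.42, a difference of -0.96 (SE 0.25). JCHAIN, which joins IgA and IgM units in plasma cells, differed by -0.40 (SE 0.10) but was detected in 5 of 6 CON and 0 of 4 MUN animals. TP53I13, BICD2, SEMA6A, SDCBP, CIRBP and PTPN14 were lower without overlap, by 0.27 to 0.53 on the log2 scale. In 12 arrays IGLL1 alone of these genes kept its groups apart, at -1.54, while JCHAIN was at -0.10, BICD2 at -0.19, SDCBP at -0.12, CIRBP at -0.08 and SEMA6A at 0.24. On the higher side STRAP, which binds the TGF-beta receptor and the SMN complex, was at 8.10, 7.81, 7.90 and 7.91 in MUN and 7.32 through 7.48 to 7.75 in CON, a difference of 0.42 (SE 0.10). The weak replicates also lay above CON at STRAP, at 8.69 and 8.72, where the difference was 0.68. EML1, RPP21, NR2F6 and NDRG1 likewise did not overlap in 12 arrays or in 10, with differences of 0.17 to 0.34 in 10, of which EML1 was at 0.82 and NDRG1 at 0.37 in 12. A weak replicate was the highest of the 12 arrays at 62.2% of all 8685 genes, so high levels there do not set these genes apart. TMEM183A, SPC24 and FOXM1 were higher without overlap in 10 arrays. TMEM183A was at -0.10 in 12 arrays, and the second kept probes gave -0.09 at FOXM1 against 0.22 and 0.01 at EML1 against 0.34. At SDCBP, on the lower side, the second kept probe gave -0.145 against -0.39 in 10 arrays.

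Females alone (3 against 3) gave larger differences at some genes and smaller ones at others. limma called 0 of 8685 genes (0%), with a smallest adjusted p of 0.0980, and 854 (9.83%) had an unadjusted p under 0.05. The groups did not overlap at 1437 genes (16.5%). GADD45B differed by -1.45, MYC by -1.40 (-1.44 in 10 arrays) and HMGCS1 by -1.52, each without overlap, while ZFP36 differed by -0.72 with overlap. CITED2, a coactivator that limits hypoxia signalling, was at 9.06, 9.18 and 8.81 in MUN females and 7.55 in the MUN male, against 7.49 to 8.22 in CON of both sexes. F13B, a subunit of coagulation factor XIII, was at 8.90, 9.17 and 9.38 in MUN females and 8.72 in the male, against 8.12 to 8.83 in CON. ANXA1, an anti-inflammatory lipid-binding protein, was at 7.14, 7.11 and 7.15 in MUN females and 7.89 in the male, and at 7.19 to 7.97 in CON. These 3 genes, FASN and the early response gene CSRNP1 of the plot of both diets were chosen after their values were seen. With 1 MUN male left, sex and animal cannot be told apart, and no difference between the sexes was tested.

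The same contrast after 7 weeks of HFCS was used to ask whether the baseline difference itself differed between diets. Over 21 liver arrays, without the 3 weak ones (MUN replicate 4 was also weak on HFCS, with a correlation of 0.0925), limma with the animal as a block called 0 of 8685 genes (0%). At an unadjusted p under 0.05 there were 444 (5.11%), and the smallest adjusted p was 0.551. GADD45B differed between MUN and CON by 0.14 (SE 0.32) on HFCS, ZFP36 by 0.05 (SE 0.25) and MYC by 0.47 (SE 0.41). The change of the contrast, chow minus HFCS, was -1.37 (SE 0.40) at GADD45B, -1.18 (SE 0.32) at ZFP36 and -1.85 (SE 0.52) at MYC. CSF1R differed by -0.32 (SE 0.23) on HFCS, and its change of -0.40 (SE 0.29) was smaller. The 5 genes with the smallest p for this change were PPP1R18, TMEM183A, WAPL, RIC8B and IHH, at -0.37, 0.30, 0.51, 0.36 and -0.62. The change at GDF15 was -1.06 (SE 0.27). GADD45B, ZFP36, MYC, CSF1R and GDF15 were taken up for the chow comparison. Their chow values form part of the change, so these changes are not independent evidence. IGLL1 was -0.77 (SE 0.26) on HFCS and STRAP 0.30 (SE 0.09), and both lay on the same side as on chow. Both diets were read in the same animals, except that MUN replicate 6, a male, entered on HFCS only. Diet, time and this change in the MUN animals cannot be told apart.

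**Figure D5:**
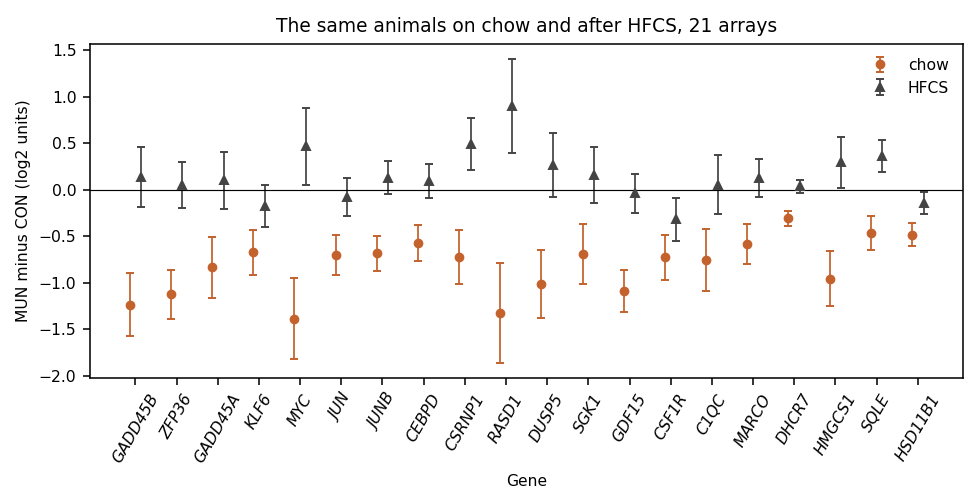
MUN minus CON difference (log2 units) of 20 genes on chow (circles) and on HFCS (triangles), with bars for 1 SE, from 1 fit of 21 liver arrays. MUN replicate 6 enters on HFCS only. All 20 genes were chosen for lying below 0 on chow, and on HFCS GADD45B, ZFP36 and MYC lie at 0.14, 0.05 and 0.47 and CSF1R at -0.32.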

How the data were processed

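Total RNA (Trizol) was labelled with biotin and hybridised to HumanHT-12 v4 BeadChips. The authors exported the signals from GenomeStudio and analysed them in Partek, with versions not given in the sources used here. The deposited intensity values are probe signals on a linear scale, not normalized, for 47231 probes. Beside each stands the authors' detection score, which rises to 1 in columns whose headings say p-value. A second deposited table holds the authors' quantile normalized intensity values of 36088 probes and served as an alternative. Columns were matched to samples by title.

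Probes with a score above 0.95 on at least 6 of 24 liver arrays were kept (13611), log2 transformed with no background correction, then quantile normalized over those arrays. Of the named probes 23458 had 1 gene symbol, 7 had several, and 12623 probes of the value table were not listed. Of the kept probes 10377 had 1 symbol, and the brightest per gene gave 8685 genes. MUN and CON were compared in R 4.3.3 with limma 3.58.1 (Benjamini-Hochberg adjusted p under 0.05, fold at least 1.2) in 12 arrays and in 10 arrays without those of median correlation under 0.9. The change with diet was fitted with the animal as a random block (statmod 1.5.0). The fits were run on simulated data, with every array drawn from the CON mean and SD of each gene. That simulation held no weak arrays and no likeness between arrays of the same animal, so it did not test how the fits handle either. The number of arrays limits the precision.

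Named genes were GADD45B, ZFP36 and CSF1R, KLF6, XBP1, YAP1 and TP63 from the study's network analysis, up to 12 genes a direction with the smallest p among groups without overlap, up to 5 of each list by p with the defining markers, and 5 for the change with diet. Genes outside this rule are stated. Members and lists were chosen with earlier results of these data known. Alternatives were background correction, detection filter, normalization, samples, sex, array weights, the analysis of variance of the methods, fold threshold and leaving out each array.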

Additional observations from a re-analysis of the deposited data

Results flagged for a closer look

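Within each group of 4 to 6 arrays the farthest array was compared with its group by Dixon's ratio, the gap to the nearest other array divided by the range. Chance passes about 1 group in 20, and 243 groups of named genes were examined, of which 26 passed together with 1 array measure, 2 of them in CON. ZFP36 in CON had a ratio of 0.658 through replicate 1 at 9.35, and FOXM1, a factor of cell division, 0.648 through replicate 6 at 6.78.

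In MUN with all 6 arrays 18 groups passed, each through weak replicate 4 or 6. Replicate 4 was the farthest at BTG1 (0.673), CD14 (0.868), GBP1 (0.715), TAP1 (0.652), RNASET2 (0.645), PLAC8 (0.67), SEMA6A (0.688), CIRBP (0.807), TMEM183A (0.913), EML1 (0.747), NDUFS4 (0.669) and ALB (0.867). Replicate 6 was the farthest at KLF6 (0.7), JUN (0.816), CD68 (0.633), HABP2 (0.729), GHR (0.749) and SLC25A20 (0.743).

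In MUN without the weak arrays 7 groups passed, and the farthest array was replicate 5, the male, each time. These were CSRNP1 (0.837, at 8.16), IRF1 (0.879, at 7.58), HMGCS1 (0.916, at 8.82), ALB (1, at 13.88), EIF1 (0.917, at 9.35), ANXA1 (0.959, at 7.89) and the number of detected probes (0.835, at 12918). CSRNP1, EIF1 and ANXA1 were chosen after their values were seen, so the chance rate above does not apply to them. The ALB ratio came from equal values in the females, at 0.051 from the CON mean against 0.003 in the male.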

How the results depend on the processing

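The count of called genes was 0 under every alternative run in 12 and in 10 arrays. Leaving out each array in turn gave smallest adjusted p values of 0.404 to 0.958 in 12 arrays, with 184 to 432 genes at an unadjusted p under 0.05, and of 0.0663 to 1 in 10 arrays, with 274 to 665. The most, 432 and 665, were without MUN replicate 5. In 10 arrays the lowest adjusted p values were 0.0663 without MUN replicate 5 and 0.0669 without CON replicate 1. No paired analysis was possible because the MUN and CON livers came from different animals. The fit of all 4 liver groups with the animal as a replicate block gave 0 calls in 12 and in 10 arrays, and the diet comparison without that block gave 0. In the diet comparison, sex as a term gave 1 call (MYC, change -1.71, adjusted p 0.0464), and leaving out arrays gave 0 to 1, the 1 being ZFP36 without CON replicate 1 (change -1.43, adjusted p 0.011). Of 1832 values of 81 named genes, 26 changed sign, in 13 genes, and the cause was not tested. With all 12 arrays the differences were -0.398 at BTG1, -0.799 at CD14, -1.96 at APOA2, 0.243 at SEMA6A, -0.103 at TMEM183A, -2.26 at TTR and 0.304 at ANXA1. Median centring gave -0.0115 at XBP1, -0.0128 at CD14, -0.0849 at SF3B6 and -0.0823 at ECI2, and normalization over 21 arrays -0.0201 at SF3B6 and -0.0013 at ECI2. Females alone gave -0.0675 at XBP1 and -0.0368 at ALB. MSMO1 was 0.0307 where probes had to be detected on all 12 arrays. Leaving out arrays in turn gave -0.0182 to 0.212 at XBP1, -0.0275 to 0.154 at CD14, -0.118 to 0.0148 at CD68, -0.0061 to 0.0984 at ALB and -0.0347 to 0.057 at TTR. With detection on all 12 arrays no T and NK cell marker was left.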

Other observations

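EIF1, a translation initiation factor whose sequence has close copies in the genome, was chosen after its values were seen. Its probe took 1 of 2 levels by animal, and each animal kept its level between the diets on all arrays that were not weak. On chow CON replicates 1 to 4 were at 9.33, 9.67, 10.69 and 9.40 and CON replicates 5 and 6 at 7.23 and 7.31. After HFCS the same 6 animals were at 9.22, 9.71, 10.23, 9.56, 7.18 and 6.90. MUN replicates 1, 2 and 3 were at 7.16, 6.97 and 7.02 on chow and at 7.24, 7.08 and 7.10 on HFCS, and MUN replicate 5 was at 9.35 and 9.53. In females alone the difference was -2.85, the largest of the 81 named genes there. Sequence at the probe was not analysed.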
